A study of Mus musculus with 7 samples.

Results

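The blood and vascular program of the posterior second heart field (pSHF) was followed through 10 genes, which divide into 3 early factors of the haemangioblast, Etv2, Tal1 and Lyl1, and 7 genes of mature endothelium, Kdr, Flt1, Tek, Tie1, Cdh5, Pecam1 and Emcn. These genes were chosen from measured differences between mutant and wild-type tissue in these same arrays, so their differences between genotypes are given as a description, without a test. Etv2 and Tal1 are also among the genes that the study itself selected on these arrays. The 10 genes are read by 18 probes printed as 45 spots. Of these, 14 probes, at least 1 for each gene, passed the filter on dim signal, among 23117 probes for 14891 genes that passed in all.

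Endothelial and primitive blood cells arise in the embryo from shared mesodermal precursors, often called haemangioblasts. Etv2, a transcription factor of the ETS family, acts briefly in that precursor and switches on the genes of both lineages. Tal1 and Lyl1 are closely related basic helix-loop-helix factors that work with Gata and Lmo2 proteins in blood and endothelial precursors. The products of the mature genes are receptors for Vegf (Kdr and Flt1) and for angiopoietins (Tek, with its partner Tie1), and proteins of the cell junction and surface (Cdh5, Pecam1 and Emcn), which differentiated vessels go on making after Etv2 has declined.

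The tissue was microdissected from embryos at embryonic day 9.5 (E9.5) on a mixed background, labelled C56B/6 and CD-1, from crosses of Shh +/- parents with superovulated females. RNA from 4 pools of Shh -/- embryos (mutant pools 1, 2, 3 and 4) and 3 pools of Shh +/+ embryos (wild-type pools 1, 3 and 4) was labelled with 1 dye and hybridized to 1 Agilent whole-genome array per pool. Shh encodes the secreted ligand Sonic hedgehog, and the null allele is present in every cell of a mutant embryo. The dissection took in the attached foregut and left out the heart and neural tube, so each pool is a mixture of cell types. Pools of equal number lay on the same slide, where the mutant RNA was always hybridized at position 1 and the wild-type RNA at position 2, so an effect of position and one of genotype cannot be told apart. Mutant pool 2 had no wild-type partner on its slide, and a possible leak of its array is recorded.

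On each array 59.8% to 70.6% of the 41174 probes were well above background, and no spot was saturated. Values are normalized log2 signals, and a difference is the mutant mean minus the wild-type mean on that scale, with its standard error from limma. Precision is limited by the 7 arrays available, and nothing in the labels says whether embryos of different pools came from separate litters. Shh itself differed by -1.08 (standard error 0.20, limma adjusted p = 0.0652), and its pools did not overlap between genotypes (two-sided exact permutation p = 0.0286, the smallest possible for 4 pools against 3). That left 47.4% of the wild-type Shh signal on the arrays, whereas the study's RT-PCR found a larger reduction of Shh. The reason for this gap was not tested. The transcriptional effector Gli1 differed by -1.02 (limma adjusted p = 0.0673) and the receptor Ptch1 by -1.17 (limma adjusted p = 0.142). A second Ptch1 probe gave -1.19 (standard error 0.60, limma adjusted p = 0.757), and its genotypes overlapped. Across all probes, 129 of 23117 (0.558%) passed an adjusted p under 0.05 in limma, 68 with lower and 61 with higher mutant means. With each array scaled to its 75th percentile in place of this normalization, 57 passed, 38 of them lower. Genotypes did not overlap for 8.34% of the 23026 probes measured on all 7 arrays. All 10 genes listed for the pSHF, among them Isl1 and Tbx5, passed the filter. So did 23117 of all 41174 probes, all 10 cardiomyocyte genes and all 8 foregut genes, so passing does not single out the pSHF.

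The probe for Etv2 is shown because the largest difference among the 10 genes rests on it alone. It is read from 60 bases of the coding sequence for the ETS DNA-binding domain, on the minus strand at chr7:31418776-31418835 (mm9, as given in the scanner files). Whether the probe also reads other genes of the ETS family was not tested.
Etv2 probe: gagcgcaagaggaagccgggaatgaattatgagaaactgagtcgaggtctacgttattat

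Sequence before the start of transcription was available for 8 of the 10 genes, all but Cdh5 and Pecam1 (RefSeq, build GRCm38.p6). The 250 bases before the start are printed for Etv2 and Tal1, the early factors with the lower mutant means, and for Kdr and Tie1, mature genes whose difference varied widely from slide to slide. Capitals mark the core of the site that ETS factors bind, GGAA on either strand.
Etv2, chr7:30635853-30636102, minus strand: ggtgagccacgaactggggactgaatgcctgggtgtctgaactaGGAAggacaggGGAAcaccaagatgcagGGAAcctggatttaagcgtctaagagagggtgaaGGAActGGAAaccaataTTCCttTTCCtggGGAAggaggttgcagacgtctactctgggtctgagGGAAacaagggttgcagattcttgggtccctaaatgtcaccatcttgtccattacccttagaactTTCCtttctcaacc
Tal1, chr4:115056176-115056425, plus strand: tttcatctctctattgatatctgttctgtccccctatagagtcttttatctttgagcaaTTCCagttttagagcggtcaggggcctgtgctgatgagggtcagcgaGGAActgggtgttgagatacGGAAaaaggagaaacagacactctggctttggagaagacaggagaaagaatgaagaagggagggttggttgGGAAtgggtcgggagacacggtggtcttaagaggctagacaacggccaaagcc
Kdr, chr5:75978456-75978705, minus strand: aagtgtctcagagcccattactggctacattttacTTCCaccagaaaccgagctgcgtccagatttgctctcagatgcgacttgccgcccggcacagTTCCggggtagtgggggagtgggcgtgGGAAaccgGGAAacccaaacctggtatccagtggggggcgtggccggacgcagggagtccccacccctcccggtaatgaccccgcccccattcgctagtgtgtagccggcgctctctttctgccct
Tie1, chr4:118489850-118490099, minus strand: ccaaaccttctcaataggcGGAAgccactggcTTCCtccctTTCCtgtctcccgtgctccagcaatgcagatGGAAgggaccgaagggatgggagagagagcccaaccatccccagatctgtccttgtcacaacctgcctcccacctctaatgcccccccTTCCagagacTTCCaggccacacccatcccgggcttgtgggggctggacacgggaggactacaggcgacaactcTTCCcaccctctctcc

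Etv2's own window held 10 copies of the ETS core and Tie1's held 7, against a median of 3 over the 32851 promoters of the table. Kdr, Tal1, Flt1 and Emcn each held 4 copies, Lyl1 held 5 and Tek held 2. The core is common, being found in 93.4% of all such windows. The letters GATA, the core bound by Gata factors, occurred 4 times before Tal1, for which the table holds 2 starts and the one nearest the gene's outer end was read, and once each before Kdr and Tek, against 53.6% of all windows with any copy. The E-box CANNTG, the kind of site that Tal1 and Lyl1 bind with their partners, was found in the windows of Lyl1, Kdr, Tek, Tie1 and Emcn, and in 66.2% of all windows. The core of the site for Gli factors, GACCACCC, was in none of the 8 windows and in 0.703% of all. Both strands were read for every motif, copies may overlap, and a match of letters is a description and not evidence of binding.

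Among the early factors, Etv2 was lower in the mutants, Tal1 was lower by a smaller amount and Lyl1 was not lower. Etv2 read 9.87, 9.52, 9.30 and 9.62 in mutant pools 1, 2, 3 and 4, against 10.48, 10.41 and 10.49 in wild-type pools 1, 3 and 4. The 3 wild-type pools lay close together, with an SD of 0.04 against 0.23 among the mutants, and no mutant pool reached them. The mutant mean was 9.58 ± 0.23 (SD, n = 4) and the wild-type mean 10.46 ± 0.04 (SD, n = 3). The difference was -0.88 (standard error 0.14), which leaves 54.2% of the wild-type signal and is 1.84-fold lower. Within slides it was -0.61, -1.11 and -0.87 on slides 1, 3 and 4, and without mutant pool 2 it was -0.86. RNA from bulk tissue cannot tell fewer cells of a type from less RNA per cell, and this holds for every gene below.

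Tal1, which begins the blood program and is kept in endothelium for a time, is read by a probe at chr4:114744223-114744283 (mm9). Its signals were 10.91, 11.05, 10.94 and 10.61 in the mutant pools and 11.86, 11.20 and 11.10 in the wild-type pools. The genotypes did not overlap, although the highest mutant pool and the lowest wild-type pool were near each other. The difference was -0.51 (standard error 0.20), with -0.95 on slide 1, -0.26 on slide 3 and -0.49 on slide 4. Wild-type pool 1 stood well above the others, and without it the difference was -0.27.

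Lyl1, the close relative of Tal1, read 12.85, 12.84, 12.60 and 12.87 in the mutant pools and 13.13, 12.56 and 12.53 in the wild-type pools. The genotypes overlapped. The difference was 0.05 (standard error 0.16), and it ran from -0.27 on slide 1 to 0.34 on slide 4. As with Tal1, wild-type pool 1 was the highest of all 7 pools, and without it the difference of Lyl1 was 0.25. For Etv2 that pool was the middle one of the 3 wild-type pools, and leaving it out gave -0.87.

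**Figure D1:**
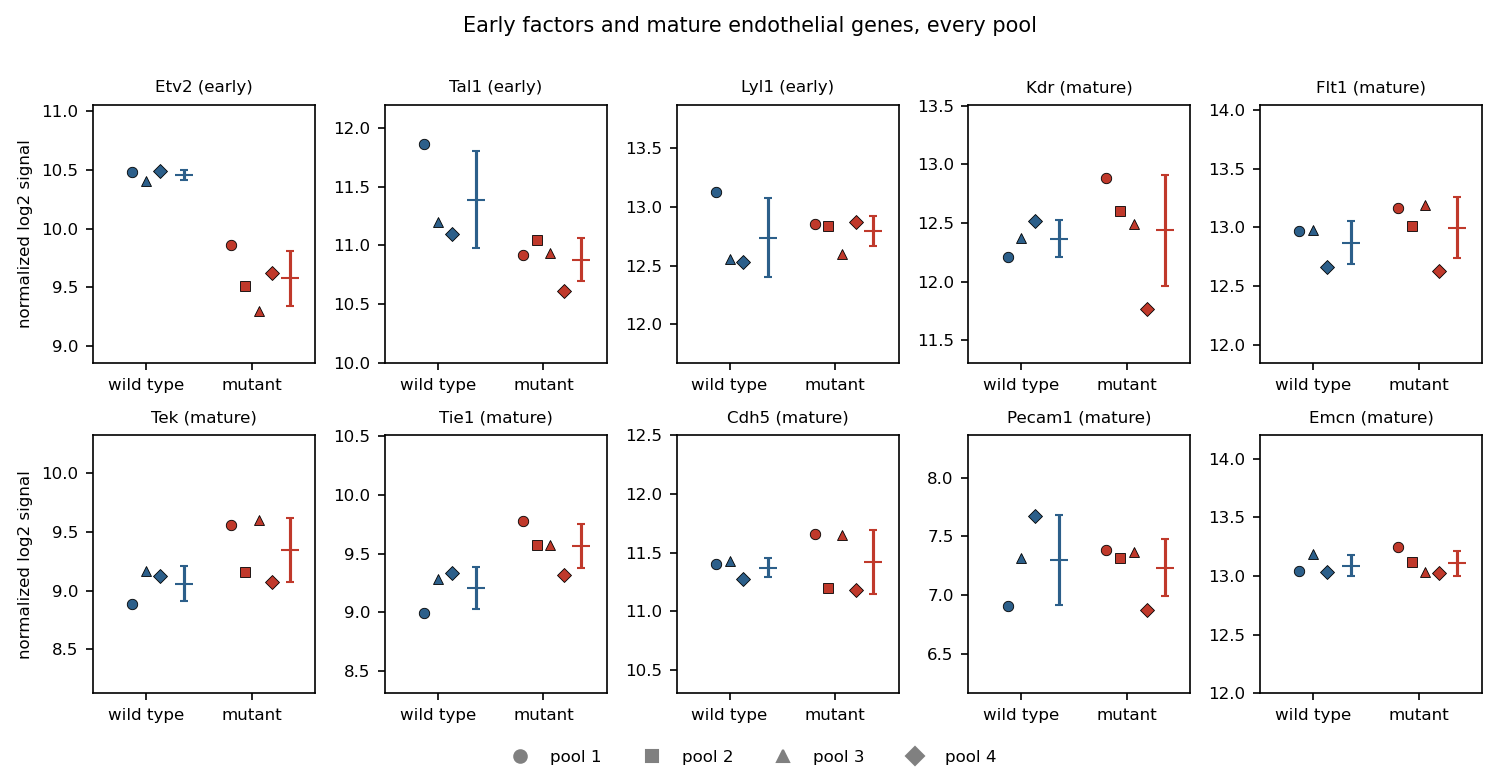
Normalized log2 signal of the brightest probe of each of the 10 genes (vertical axis, equal span in every panel) in 3 wild-type and 4 mutant pools, with the marker shape giving the pool number and the bar the mean and SD. The mutant pools of Etv2 lie at 9.30 to 9.87, all below the wild-type pools at 10.41 to 10.49, while in every panel of a mature gene the genotypes overlap.

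None of the 7 mature genes separated the genotypes. By the brightest probe of each, 6 had a higher mean in the mutants and 1 a lower one, with a median difference of 0.07 and a range from -0.06 to 0.36. Over all 11 tested probes of these genes, 9 were higher and 2 lower, and the median was 0.13. The median over all probes tested was 0.02.

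Kdr, the main signalling receptor for Vegf and one of the first marks of endothelial precursors, read 12.88, 12.60, 12.49 and 11.77 in the mutant pools. In the wild-type pools it read 12.21, 12.37 and 12.52. The mutant pools thus held both the highest and the lowest of the 7 values. The difference was 0.07 (standard error 0.24), with opposite signs on different slides, 0.68 on slide 1, 0.12 on slide 3 and -0.75 on slide 4. The probe is printed 10 times on the array, and the SD between its spots was 0.04 to 0.08 on an array, well under the SD of 0.48 between mutant pools. A second probe, drawn from another clone, was not well above background on any array.

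Flt1, the Vegf receptor that also acts as a decoy, read 13.16, 13.01, 13.19 and 12.63 in the mutant pools and 12.97, 12.98 and 12.66 in the wild-type pools. Mutant pool 4 and wild-type pool 4 were the lowest of their genotypes. The difference was 0.13 (standard error 0.16). Its other tested probes, one 5′ of it on another clone and one beside it, gave -0.02 (standard error 0.17) and 0.26 (standard error 0.17). A further 2 probes were too dim to test, one of them well above background in 1 of 4 mutant and 2 of 3 wild-type pools and the other in none.

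Tek, the angiopoietin receptor Tie2, read 9.56, 9.16, 9.60 and 9.07 in the mutant pools and 8.89, 9.16 and 9.13 in the wild-type pools. Mutant pools 1 and 3 were above all wild-type pools and mutant pool 4 was not. The difference was 0.29 (standard error 0.16), from 0.67 on slide 1 to -0.05 on slide 4, and the second probe gave 0.21 (standard error 0.28). Tie1, the orphan receptor that pairs with Tek, read 9.78, 9.57, 9.58 and 9.32 in the mutant pools and 9.0, 9.28 and 9.34 in the wild-type pools. Mutant pool 4 alone lay within the wild-type range. Its difference of 0.36 (standard error 0.14) was the largest of the 7, with 0.78, 0.30 and -0.01 on slides 1, 3 and 4.

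Cdh5, the cadherin of endothelial junctions, read 11.66, 11.19, 11.65 and 11.18 in the mutant pools and 11.41, 11.43 and 11.28 in the wild-type pools. The mutant values lay on either side of the wild-type values. The difference was 0.05 (standard error 0.16) and that of a second probe 0.15 (standard error 0.19). Emcn, a sialomucin of venous and capillary surfaces, read 13.25, 13.12, 13.03 and 13.03 in the mutant pools and 13.04, 13.19 and 13.04 in the wild-type pools. Its SD of 0.10 among mutant pools was the smallest of the 7, and its difference was 0.02 (standard error 0.11).

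Pecam1, an adhesion molecule of endothelium and platelets, read 7.38, 7.31, 7.37 and 6.87 in the mutant pools and 6.91, 7.31 and 7.67 in the wild-type pools. The genotypes overlapped throughout, and the difference was -0.06 (standard error 0.20). It was 0.47 on slide 1, 0.06 on slide 3 and -0.80 on slide 4. The SD between the 9 or 10 spots of this probe was 0.05 to 0.13 on an array, against 0.24 between mutant and 0.38 between wild-type pools. The probe matches bases that span 1854 positions of chromosome 11 (106542389 to 106544242, mm9), so it crosses an intron. A second probe annotated to Pecam1 was not well above background on any array.

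**Figure D2:**
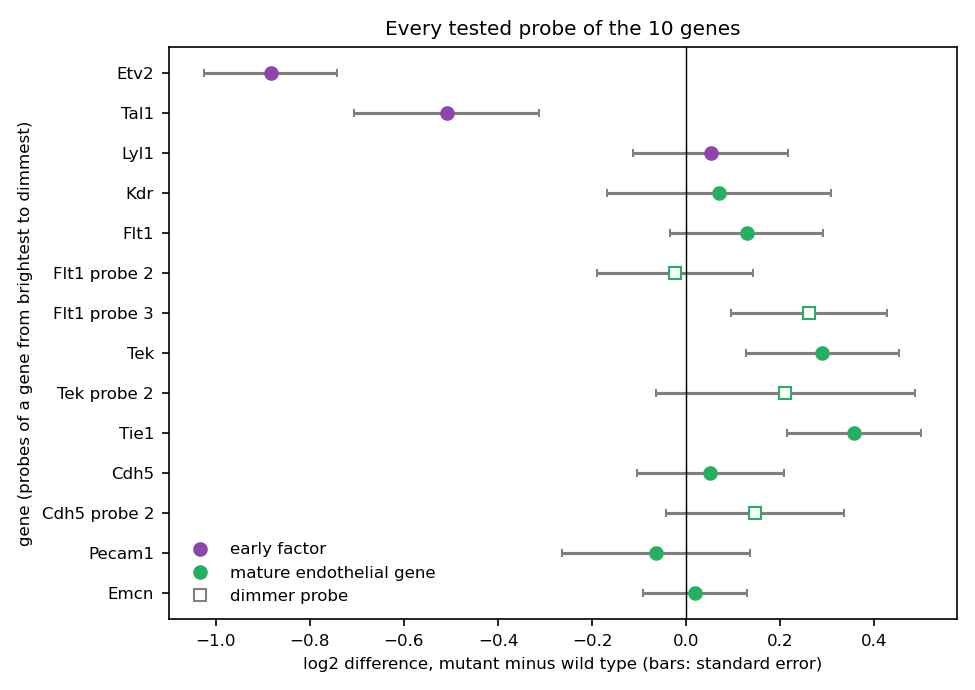
Difference between mutant and wild-type means on the log2 scale (horizontal axis) with its standard error for each of the 14 tested probes, filled for the brightest probe of a gene and open for the others. Etv2 at -0.88 and Tal1 at -0.51 lie to the left, and the mature genes lie between -0.06 and 0.36.

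Of the 14 tested probes of the 10 genes, 1 (Etv2) passed limma's adjusted threshold, against 0.558% of all probes, and 2 (Etv2 and Tal1) showed no overlap, against 8.34%. Since the genes were chosen from this contrast, nothing is read from these counts. With the slide as a block, which uses only slides 1, 3 and 4, 11 of all probes passed and none of the 14. None of the 14 passed when any array other than that of mutant pool 1 was left out.

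The mean over the 3 early factors was 11.08 ± 0.12 (SD, n = 4) in the mutants and 11.53 ± 0.25 (SD, n = 3) in the wild type, a difference of -0.45. The mean over the 7 mature genes was 10.87 ± 0.24 (SD, n = 4) and 10.75 ± 0.10 (SD, n = 3), a difference of 0.12. Measured as the early mean minus the mature mean on each array, the genotypes differed by -0.57, and without mutant pool 2 by -0.59. The mutant pools ran from -0.04 to 0.48 on that measure and the wild-type pools from 0.57 to 1.19. The size of this gap depended on the slide, at -1.08, -0.61 and -0.09 on slides 1, 3 and 4, and without wild-type pool 1 it was -0.36. Etv2 alone set against the mature mean gave -1.08, -1.28 and -0.62 on the same slides. Tal1 against the mature mean gave -1.41, -0.43 and -0.23, and Lyl1 gave -0.74, -0.13 and 0.59, so that Lyl1 changed sign among the slides.

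The mature genes differed from pool to pool together. All 7 were higher in the mutant than in the wild-type pool of slide 1 (median 0.47), 6 were higher on slide 3 (median 0.21) and all 7 were lower on slide 4 (median -0.05). On slide 4 Flt1 at -0.03, Tie1 at -0.01 and Emcn at -0.01 were lower only slightly. Of all 11 tested probes 10 were lower there and 1, a dimmer Flt1 probe, was higher at 0.16. The corresponding medians over all probes tested were 0.01, -0.02 and 0.05. Mutant pool 4 was the lowest of the 4 mutant pools for 7 of the 7 genes, whereas it was the lowest for 26.6% of all probes. For Emcn it was so only narrowly, at 13.026 against 13.034 in mutant pool 3. Mutant pool 1 was the highest for 5 of the 7, against 23.0% of all probes. Between slides 1 and 4 the difference moved by 1.43 for Kdr and 1.27 for Pecam1, and by 0.22 for Flt1 and for Emcn. Without mutant pool 4 the median over the 7 genes was 0.25 and without mutant pool 1 it was -0.03, compared with 0.07 over all pools. The cardiomyocyte markers had the same extreme mutant pools. Of 10 such genes, mutant pool 4 was the lowest mutant pool for 9 and mutant pool 1 the highest for 9, and their median difference was 0.61 on slide 1, 0.13 on slide 3 and -0.11 on slide 4. Among 28 further endothelial genes mutant pool 4 was the lowest for 18 and mutant pool 1 the highest for 14, with medians of 0.24, 0.04 and -0.12 on slides 1, 3 and 4. These extremes are thus not particular to the mature genes, and the part of heart tissue in them was not tested.

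**Figure D3:**
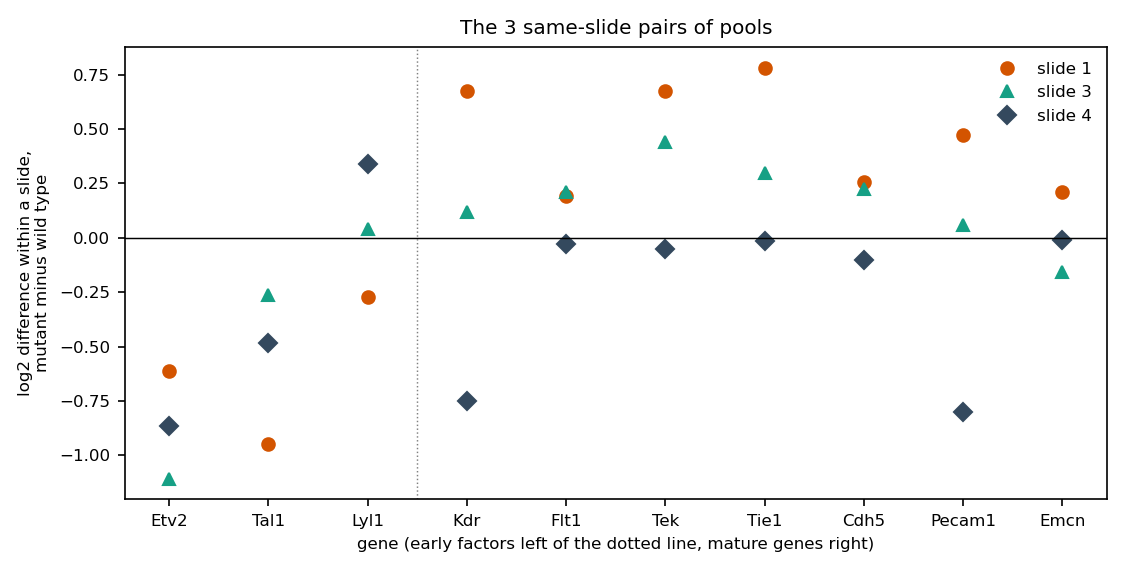
Difference between the mutant and the wild-type pool of the same slide on the log2 scale (vertical axis) for each gene, 1 point per slide. Etv2 and Tal1 are below 0 on all 3 slides, whereas all 7 mature genes are above 0 on slide 1 and below 0 on slide 4. Flt1, Tie1 and Emcn lie close to 0 on slide 4, at -0.03 to -0.01.

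Over the 7 arrays the signal of each mature gene followed the mean of the other 6, with Pearson's r from 0.54 for Pecam1 to 0.84 for Kdr. Etv2 had an r of -0.30 with the mean of all 7, Tal1 one of -0.22 and Lyl1 one of -0.38. Tal1 had an r of 0.65 with Etv2, and Lyl1 one of 0.004. These correlations rest on 7 arrays that share slides and normalization, and no p is given. Genotype means were not removed, so the r of Tal1 with Etv2 includes the difference between genotypes for which these genes were chosen.

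Among all other tested probes, the patterns most like Etv2 over the 7 arrays were those of Nkx6-1, a homeobox gene of neural tube and pancreas (r = 0.99), A230054D04Rik (0.98), Bai1 (0.98) and Cldn11, a claudin (0.97). Each of these 4 had a lower mutant mean, with differences from -1.13 to -0.79, and 2 of them passed the adjusted threshold (A230054D04Rik and Bai1, limma adjusted p = 0.0480 and 0.0434). Genotype means were not removed here either, so likeness to Etv2 includes a shared difference between genotypes. Most like the mean of the mature genes were Hhat, which attaches palmitate to hedgehog proteins (r = 0.995), Cpne4 (0.99), Soat1, an enzyme of cholesterol ester formation (0.98), Creg1 (0.97) and Notch1, a receptor of arterial endothelium among many tissues (0.97). Their differences between genotypes were 0.07 to 0.35, and none passed.

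Probes around Etv2 on chromosome 7 had differences nearer 0. Within 100 kb by the coordinates of the array's annotation there were 21 other probes, 20 of them with a gene name, and 13 for 12 genes passed the filter. None of the 13 was called by limma, 10 were higher and 3 lower, and their median was 0.04. The nearest were Rbm42, which encodes an RNA-binding protein, 7.35 kb to one side at 0.04, and Cox6b1, a subunit of cytochrome c oxidase, 8.48 kb to the other at 0.06. The lowest were Tmem149 at -0.29 and Zbtb32 at -0.29, followed by Lin37 at -0.11. Zbtb32 was well above background in 3 of 4 mutant and 3 of 3 wild-type pools, so it passed the filter through the wild type alone. BC053749, Psenen, U2af1l4, Wbp7, 2310022K01Rik, Atp4a and Tmem147 lay between 0.01 and 0.11, and Hspb6, Upk1a, 2200002J24Rik, Gapdhs and a second probe each of Wbp7 and Atp4a were too dim to test.

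**Figure D4:**
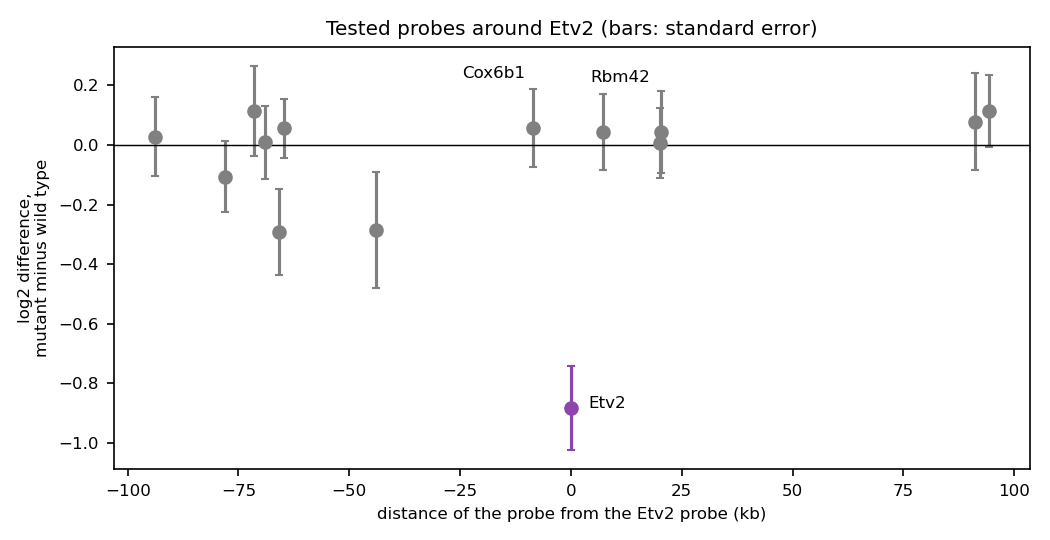
Difference between mutant and wild-type means on the log2 scale (vertical axis) with its standard error, for the tested probes within 100 kb of the Etv2 probe, against distance from it in kb. Etv2 is at -0.88 and the other 13 probes lie between -0.29 and 0.11.

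Other transcription factors of the early blood and endothelial program showed no shared direction. Of 10 such genes tested, 4 were higher and 6 lower, none was called, and the median was -0.07. Lmo2, the bridging partner of Tal1, read 7.70, 7.35, 7.63 and 7.72 in the mutant pools and 7.92, 7.95 and 8.20 in the wild-type pools. Its difference was -0.43, not past the threshold (limma adjusted p = 0.314). Genotypes did not overlap for 4 of the 10 genes (Lmo2, Gfi1, Gata2 and Hhex), against 8.34% of all probes. Among the lists of other cell types this count ran from 0 of 10 cardiomyocyte genes to 5 of 8 liver bud genes. Gfi1 was well above background in 3 of 4 mutant and 3 of 3 wild-type pools. It thus passed the filter through the wild type alone, which favours a lower mutant mean. Gfi1, a repressor of blood cells, was at -0.55 (limma adjusted p = 0.182). On the higher side were Hhex at 0.55 (limma adjusted p = 0.148), a homeobox gene of both endothelium and liver bud, and Gata2 at 0.15. By an unadjusted p under 0.05, 1 gene was higher and 2 were lower. The share of all probes past that unadjusted threshold was not taken, so nothing is read from these counts.

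The 12 transcription factors of later endothelium had a median of -0.04, with 3 higher and 9 lower and none called. Foxc1, a forkhead gene of mesenchyme and endothelium, was lowest at -0.70 (limma adjusted p = 0.141) and Klf2 stood at -0.19, with Klf4 at 0.25 and Ets2 at 0.19. The ligands of the Kdr, Flt1 and Tek receptors, with their other receptors, had a median of 0.01 over 10 genes and none called. Among them the Flt1 ligand Pgf was at -0.55 (limma adjusted p = 0.137) and the lymphatic Vegf receptor Flt4 at -0.62, against 0.31 for Nrp1 and 0.24 for Figf. Flt4 was well above background in 2 of 4 mutant and 3 of 3 wild-type pools, so it passed the filter through the wild type alone.

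A further 28 endothelial genes had a median near 0, with a wider range than the mature members. Of these 17 were higher and 11 lower, with a median of 0.03 and none called. The lowest were the receptor Acvrl1 at -0.64 and Thbd at -0.38, and the highest Vwf at 0.68, which endothelium and platelets store, and Stab2 at 0.60, a scavenger receptor of sinusoids. Of 12 arterial, venous and endocardial genes 5 were higher and 7 lower, with a median of -0.06 and none called. Dll4, the Notch ligand of arterial endothelium, was lowest at -0.85, and within slides it was at -2.16 on slide 4 against -0.30 and -0.23 on slides 1 and 3. Nrg1 was at -0.43. The highest were Hey2 at 0.49 and Nfatc1 at 0.47.

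Markers of other cell types were read on the same arrays. All 12 erythroid genes measured had lower mutant means, with a median of -0.45 and none called. By an unadjusted p under 0.05, 4 were lower, but without the share over all probes nothing is read from that count. The log2 of the summed erythroid signal ran from 18.29 to 18.91 in the mutant and from 18.73 to 19.51 in the wild-type pools. Rhag, a red cell membrane protein, was lowest at -0.93. For Rhag wild-type pool 1 was the highest of the 7 pools, as it was for Tal1 and Lyl1, and without that pool the median of the erythroid genes was -0.17. The part of red cells in the difference of Tal1, which red cell precursors also express, was not tested.

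Of the 8 liver bud genes measured all had higher mutant means, with a median of 0.83. By limma 3 rose, Alb by 1.22 (adjusted p = 0.0494), Ttr by 0.91 (adjusted p = 0.0319) and Fgb by 0.82 (adjusted p = 0.0494), and they code for proteins that hepatocytes secrete. The log2 of the summed liver bud signal ran from 17.17 to 17.61 in the mutant and from 17.04 to 17.17 in the wild-type pools. Under the slide block none of the 3 was past the threshold. Over all lists 2 genes were called without mutant pool 1, 1 without mutant pool 4 and 0 when any other array was left out. The part of liver bud tissue in the differences of Hhex, Stab2 and the mature genes was not tested.

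Megakaryocyte genes had a median of 0.46 over 7 genes (6 higher, none called), from Gp1bb at -0.08 and Gp5 at 0.00 to Pf4 at 0.54 and Ppbp at 0.68. White blood cell genes had a median of 0.33 over the 6 of 9 that passed the filter, from Laptm5 at -0.17 to Tyrobp at 0.71 and Mpo at 1.06, with Cx3cr1, Itgam and Sfpi1 too dim to test. Without wild-type pool 3 these medians were 0.20 and 0.072, and the white blood cell median was 0.51 without wild-type pool 1. All 10 cardiomyocyte genes had higher mutant means, with a median of 0.25, none called and the highest values at Actn2 (0.43) and Tnni1 (0.37). That median was 0.078 without wild-type pool 4, 0.099 without mutant pool 1, 0.39 without wild-type pool 3 and 0.50 without mutant pool 4. The 8 genes of foregut endoderm had a median of -0.09, none called, with Foxa2 at -0.25 and Foxa3 at 0.76, and the 10 genes of the pSHF a median of -0.26, none called, with Osr1 at -0.88, Foxf1a at -0.80 and Fgf10 at 0.56. Without mutant pool 4 the pSHF median was -0.14, and without mutant pool 2 the foregut median was 0.02. For the 7 mature genes, whose own median was 0.07, the part of each of these other cell types was not tested.

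**Figure D5:**
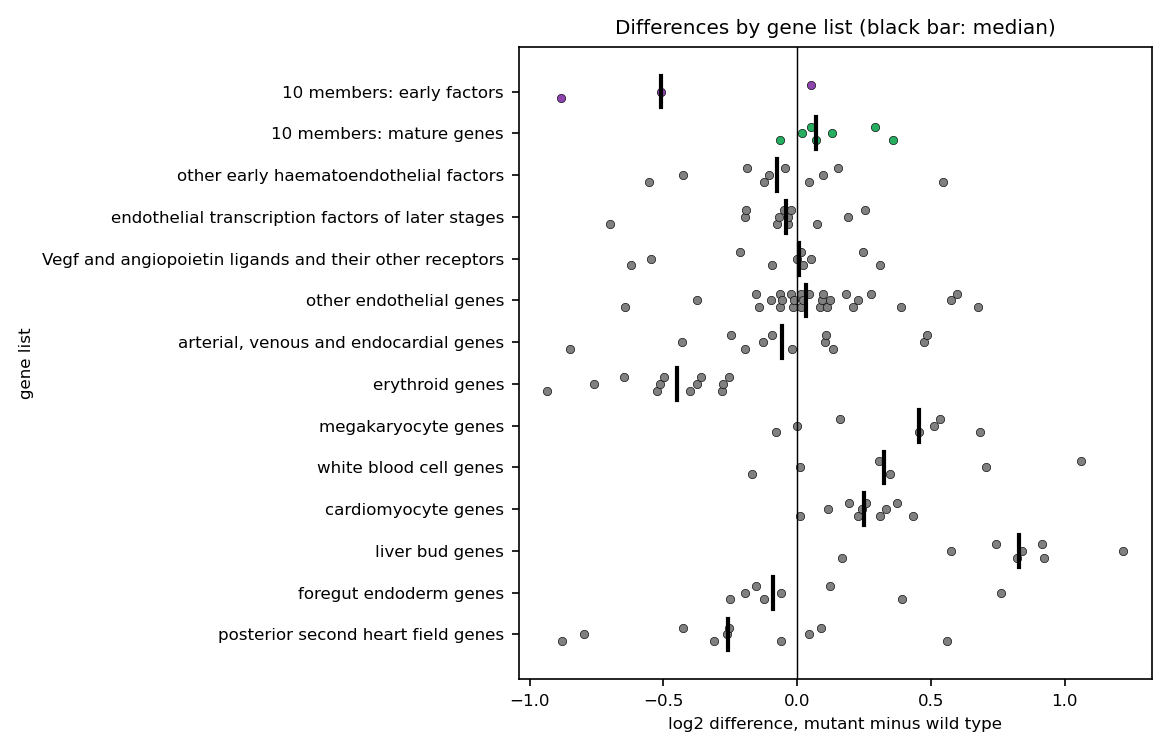
Difference between mutant and wild-type means on the log2 scale (horizontal axis) for each tested gene of the early factors, the mature genes and the 12 other lists, with the median as a black bar. The early factors have a median of -0.51, which is the value of Tal1 alone, between Etv2 at -0.88 and Lyl1 at 0.05. The mature genes have a median of 0.07. The erythroid (-0.45) and liver bud (0.83) medians lie farthest apart among the other lists.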

How the data were processed

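Signals of 7 arrays were read from the authors' deposited scanner files (Agilent Feature Extraction 10.5.1.1), which hold spot signal and background as intensity. The authors' own normalized table is deposited as log2 values whose array medians differ by over 4, so it served only as an alternative. The study's methods name background correction, removal of outlier features and VSN, and leave the background method unnamed.

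Outlier spots (155 to 206 per array) were left out. Background was removed from mean signals by normexp, using the 153 negative controls of each array (offset 50), then normalized by VSN (own implementation, share kept 0.9, 7 iterations, 5 strata), and spots of a probe were averaged. Named probes were tested if Feature Extraction marked them well above background throughout at least 1 genotype. Genotypes were compared with limma 3.58.1 in R 4.3.3 (with the data.table package, version 1.17.8), with Benjamini-Hochberg adjustment over all probes. The scripts were tested on simulated data. Figures used matplotlib 3.10.9 in Python 3.11.15. A gene was represented by its brightest probe by mean over all arrays.

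The 10 genes and the 12 lists of 138 genes were chosen with earlier results of these data known. Named genes were the members, list genes called or among the 2 most different in each direction, neighbours within 100 kb of Etv2, the 5 patterns most like Etv2 or the mature mean, and Shh, Ptch1 and Gli1. Ahsp and Serpina1a were not found under those names, and Ecscr was read as 1110006O17Rik. Some genes that this rule names are left out of the text. The SAM test of the methods, which regroups samples, was not run.

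The labels' slide barcode pairs pools of the same number. Correlations of deviations from the genotype means were 0.192, 0.238 and 0.0328 within slides and from -0.220 to 0.187 over 9 other pairs. Alternatives tried were the slide as a replicate block or as a random block, leaving out each array, the mean over a gene's probes, quantile normalization or scaling to the 75th percentile in place of VSN, uncorrected signals, keeping outlier spots or dim probes, and the authors' values.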

Additional observations from a re-analysis of the deposited data

Results flagged for a closer look

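Within the 4 mutant pools, 3 of 17 groups of values examined held a pool far from the others, by the share of the whole range that separates the extreme pool from its nearest neighbour. Chance flags about 1 group in 20 when groups are independent. These groups come from the same 4 pools, and the mature genes vary together, so the 3 flags are not weighed against that rate. For Lyl1 mutant pool 3, at 12.60 against a highest value of 12.87, stood apart by 0.879 of the range. For Pecam1 mutant pool 4, at 6.87 against 7.38, stood apart by 0.869 of the range. For the second probe of Flt1 mutant pool 4, at 9.24 against 9.87, stood apart by 0.842 of the range. Both of the latter are mature endothelial genes and the pool is the same.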

How the results depend on the processing

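Etv2 and Tal1 had lower mutant means under 16 of 16 alternatives, Etv2 from -1.55 to -0.79 and Tal1 from -1.15 to -0.27. These alternatives are not all separate. Keeping dim probes cannot change a difference, and the slide as a replicate block gives the same differences as leaving out mutant pool 2. Of the other 12 tested probes, 5 (Tie1, the brighter Tek probe, the dimmer Cdh5 probe and 2 of Flt1) kept their sign under every alternative except the authors' values as deposited, whose arrays are not on 1 scale, and the other 7 changed sign under others too. The authors' values moved most results, giving -1.55 for Etv2, -1.15 for the median of the early factors and -0.47 for that of the mature genes, while early minus mature stayed at -0.59. With each array set to the same median, an alternative added after seeing the data, the medians were -0.54 and 0.14. Leaving out 1 array gave -0.98 to -0.79 for Etv2, -0.65 to -0.27 for the early median, -0.03 to 0.25 for the mature median and -0.67 to -0.36 for early minus mature. In each of these settings, and in the authors' values, the early median was the value of Tal1. It is therefore not a result separate from that probe.

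In place of the 129 probes called by limma (68 lower), 57 (38 lower) were called with 75th percentile scaling, 103 (54 lower) with quantile normalization, 129 (74 lower) without background correction, 33 without the filter on dim probes, 0 in the authors' values as deposited or set to 1 median, and 12 to 139 with 1 array left out. Etv2 was not among the calls with 75th percentile scaling, in the authors' values, without the dim filter, with the slide as a replicate block or without any 1 array other than mutant pool 1. Of the 138 list genes, 3 were called, against 1 with quantile normalization, without background correction or with outlier spots kept, 0 with 75th percentile scaling, in the authors' values or without the dim filter, and 0 to 2 with 1 array left out. With the slide as a replicate block 11 probes (10 lower) and 0 list genes were called, and Etv2 was at -0.86. With the slide as a random block 182 probes (95 lower) and 3 list genes were called, and Etv2 was among the calls. The list medians nearest 0 (foregut endoderm and the lists of other endothelial, vascular and early genes) stayed between -0.14 and 0.08 with 1 array left out. Of the 99 values of the main results under alternatives, 71 stayed within the spread or the limit for counts and 28 moved.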
